A study of Mus musculus with 14 samples.

Results

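TDP-43 sites that coincided with a site of a myogenic transcription factor were examined in control C2C12 cells. A TDP-43 peak was counted as shared when it overlapped a Myogenin peak, a MyoD peak or both by at least 1 bp, after peaks on the mitochondrial genome had been left out. By this rule 4069 of the 48436 peaks in the 3 control TDP-43 lists were shared, out of 517016 peaks in the 10 lists of the series. C2C12 is a single mouse myoblast line that fuses into myotubes when serum is lowered, and all cells were taken on day 2 of differentiation, cross-linked and precipitated with 10 µg of antibody. The groups used were the 3 control TDP-43 libraries, the control Myogenin library, the control MyoD library and, for comparison, the control library of the serine 2 phosphorylated form of RNA polymerase II (Pol2 in the labels, here Pol II or Pol II S2P). All of their peak lists were called against IgG. A second arm received an siRNA against the long noncoding RNA Myolinc, and its lists enter only the closing observations. It is not stated in the labels if a control siRNA was given to the control cells, nor whether the 3 TDP-43 libraries came from separate cultures, so the spread between them may be technical.

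TDP-43, encoded by Tardbp, is a nuclear protein that binds RNA and DNA and is best known for binding UG-rich RNA, or TG repeats in DNA, and for controlling splicing. MyoD and Myogenin are basic helix-loop-helix factors that drive muscle differentiation and bind the E-box, CANNTG, as dimers with E-proteins. MyoD acts in committed myoblasts and during differentiation, whereas Myogenin appears as the cells leave the cell cycle and begin to fuse.

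A few promoters illustrate the shared sites, since each of them carried a shared TDP-43 peak of the promoter class in all 3 libraries. The RefSeq windows hold the 250 bases before the annotated start (build GRCm38.p6, the assembly named mm10) and are written 5′ to 3′ along the strand of the gene, with CANNTG and TGTGTG, read on both strands and including matches that overlap, in capitals.
Hoxd10, chr2:74691641-74691890, plus strand: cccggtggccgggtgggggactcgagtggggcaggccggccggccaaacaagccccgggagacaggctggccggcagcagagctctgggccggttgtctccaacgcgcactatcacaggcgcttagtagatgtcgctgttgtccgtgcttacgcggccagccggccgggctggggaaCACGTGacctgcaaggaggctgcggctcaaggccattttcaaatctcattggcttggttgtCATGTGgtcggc
Gm13822, chr5:114922262-114922511, minus strand: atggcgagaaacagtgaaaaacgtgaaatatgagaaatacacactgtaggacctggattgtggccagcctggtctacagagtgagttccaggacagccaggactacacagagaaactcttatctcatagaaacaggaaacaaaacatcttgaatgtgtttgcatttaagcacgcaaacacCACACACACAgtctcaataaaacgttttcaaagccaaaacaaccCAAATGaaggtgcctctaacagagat
Ankrd45, chr1:161142447-161142696, plus strand: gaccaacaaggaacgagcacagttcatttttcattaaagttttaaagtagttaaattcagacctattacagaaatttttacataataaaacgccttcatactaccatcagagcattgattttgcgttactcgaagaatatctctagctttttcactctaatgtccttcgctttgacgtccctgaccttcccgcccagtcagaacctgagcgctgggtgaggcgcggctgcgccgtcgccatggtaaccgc
The Hoxd10 window, before a homeobox gene of the HoxD cluster, contained 2 E-boxes, and its TDP-43 peaks met MyoD. These peaks ended at 74691850, 74691870 and 74691737 in libraries 1 to 3. The E-box nearer to the gene start lay past all of these ends, and the other lay past the end in library 3. The Gm13822 window covers a part of the site named for the neighbouring gene Oasl1, which met both factors. The window contained 1 E-box and 3 overlapping matches to the TG motif. All of these motifs lay outside the TDP-43 peaks, at lower coordinates. The peaks began at 114922356, 114922350 and 114922363 in libraries 1 to 3. The Ankrd45 window contained neither motif, and its TDP-43 peaks met MyoD.

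Myogenin sites were met more often than MyoD sites in every library. In library 1, 1582 of 29703 TDP-43 peaks met a Myogenin peak (5.33%, 95% Wilson interval 5.08 to 5.59%) and 819 met a MyoD peak (2.76%, 2.58 to 2.95%). In library 2, 635 of 10571 met Myogenin (6.01%) and 362 met MyoD (3.42%). In library 3, 508 of 8162 met Myogenin (6.22%) and 295 met MyoD (3.61%). The Myogenin share averaged 5.85 ± 0.469% and the MyoD share 3.27 ± 0.450% (SD, n = 3 libraries), and their difference was 2.59 ± 0.0208 percentage points. The exact two-sided sign-flip permutation test over the 3 libraries gave p = 0.25, the smallest that 3 libraries allow, and the same held for each of the 8 differences tested here, whose adjusted p was also 0.25. For Myogenin against MyoD, the SD and the p cover the TDP-43 libraries only. All 3 were set against the same 1 Myogenin list and 1 MyoD list, so the 2 factors were not compared across replicates. The Myogenin list was longer than the MyoD list, with 115000 against 71878 peaks that covered 25.2 Mb against 16.6 Mb. With all 5 lists reduced to 8162 peaks, the best scores first, 0.551% of TDP-43 peaks met Myogenin and 0.498% met MyoD, a difference of 0.0531 points that had the same sign in 2 of 3 libraries.

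Few TDP-43 sites met both factors. These numbered 68 of library 1 (0.229%), 31 of library 2 (0.293%) and 33 of library 3 (0.404%). Sites of Myogenin alone numbered 1514, 604 and 475 in libraries 1 to 3, and sites of MyoD alone 751, 331 and 262. Peaks of either kind made up 7.85%, 9.14% and 9.43% of the 3 lists. The myogenic lists themselves had little in common, since 1852 peaks met the other factor, 1.61% of the Myogenin list and 2.58% of the MyoD list. Those joint sites met TDP-43 more often than the others, at 4.16% against 1.80% of Myogenin peaks and 4.37% against 1.47% of MyoD peaks. Each myogenic factor has 1 library, so these shares carry counting error only and have no replicate check.

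**Figure D1:**
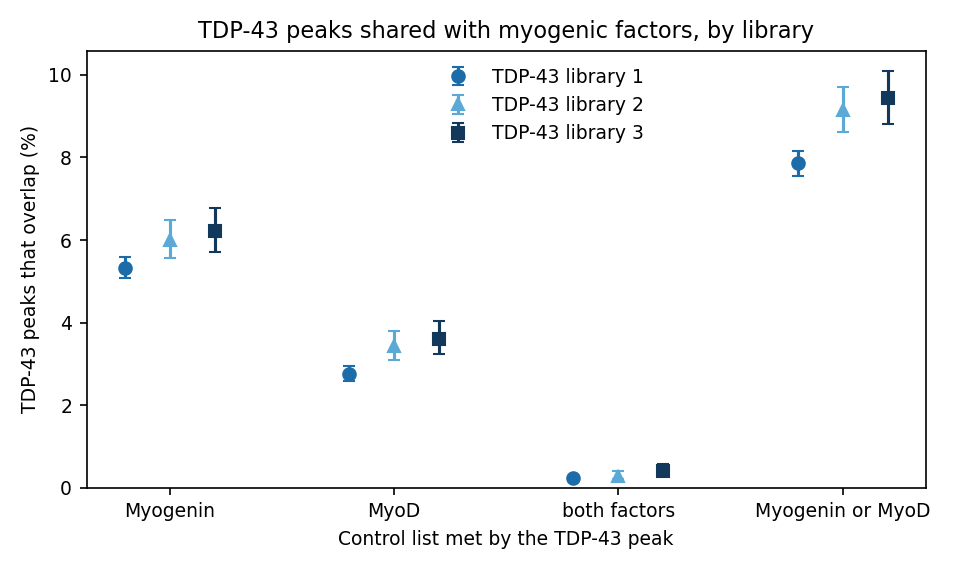
Share of the peaks of each control TDP-43 library (y axis, percent) that overlapped Myogenin, MyoD, both or either by at least 1 bp, with 95% Wilson intervals that cover counting error only. In each library the Myogenin share lies above the MyoD share, and the share that met both is under 0.5%.

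Read from the other side, the shared sites were a small part of the myogenic lists. A TDP-43 peak of any library lay on 2110 Myogenin peaks (1.83%) and on 1113 MyoD peaks (1.55%). Peaks that met all 3 TDP-43 libraries numbered 120 for Myogenin (0.104%) and 84 for MyoD (0.117%). The peaks that met TDP-43 were no taller than the rest of their own list. Their median was 14 tags, against 15 tags for Myogenin peaks that met no TDP-43, and it was 8 tags in both groups of MyoD peaks. Tags are sequence reads per peak, recovered from the deposited scores. Between overlapping partners the rank correlation of tags lay between 0.0233 and 0.246 over the 6 pairs of lists, given as a description across peaks, which are not replicates and share the genome's copy number and mappability.

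Genomic class differed by a few points between the shared sites and the rest of the same library. Shared peaks lay in exons in 24.5%, 28.3% and 28.2% of cases in libraries 1 to 3, and peaks that met neither factor in 18.3%, 23.7% and 25.4%. The difference of 4.52 ± 1.67 points (SD, n = 3) had the same sign in all 3 libraries, and it was 2.33 ± 2.20 points in lists of equal length. Promoters, which HOMER's annotation names promoter-TSS, held 5.53%, 6.63% and 5.71% of shared peaks and 4.27%, 4.78% and 5.17% of the others, a difference of 1.22 ± 0.651 points. That promoter difference turned to -0.979 points when each list was limited to peaks at or above its median score, and to -1.46 points in lists of equal length. Intergenic sequence held 32.3 ± 0.910% of shared peaks and 37.8 ± 1.93% of the others. Introns held 31.1%, 23.1% and 26.6% of shared peaks and 32.5%, 28.6% and 27.4% of the others, a difference of -2.56 ± 2.54 points that hardly exceeded its own spread between libraries. It was -4.99 ± 1.93 points from the median score up and -7.23 ± 0.649 points in lists of equal length. The intergenic difference was -5.55 ± 1.98 points, and -0.183 points in lists of equal length. In those lists 0.551% of TDP-43 peaks met Myogenin and 0.498% met MyoD, so differences taken there rest on few shared peaks.

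The same classes can be read as the share of each kind of TDP-43 site that was shared. Sites in 3′ untranslated regions were shared in 13.0 ± 2.60% of cases, those in 5′ untranslated regions in 11.8 ± 1.93% and those at gene ends in 11.5 ± 0.973%. Promoter sites were shared in 10.8 ± 1.23% of cases and exon sites in 10.4 ± 0.242%. The lowest shares were 8.08 ± 0.953% in introns and 7.64 ± 1.07% between genes. The shares of the first 5 of these classes overlapped in their spread between libraries. Shared sites also lay nearer to annotated starts, at a median distance of 16717, 14959 and 16428.5 bp in libraries 1 to 3, against 24407.5, 21112 and 19940 bp for the others.

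The contrast was far greater within the myogenic lists. Exons held 20.8% of the Myogenin peaks that met TDP-43 and 1.48% of those that did not, and 22.2% of the MyoD peaks that met TDP-43 and 1.53% of those that did not. Put as a rate, 439 of 2112 exonic Myogenin peaks (20.8%, 95% Wilson interval 19.1 to 22.6%) met TDP-43, against 703 of 64717 intergenic ones (1.09%, 1.01 to 1.17%). For MyoD the rates were 247 of 1328 exonic peaks (18.6%, 16.6 to 20.8%) and 342 of 38953 intergenic peaks (0.878%, 0.790 to 0.976%). TDP-43 lists were themselves rich in exon peaks, with 18.8% to 25.6% of their peaks there, against 1.84% of all Myogenin and 1.85% of all MyoD peaks. How far the exonic rates follow from that difference in makeup was not tested.

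**Figure D2:**
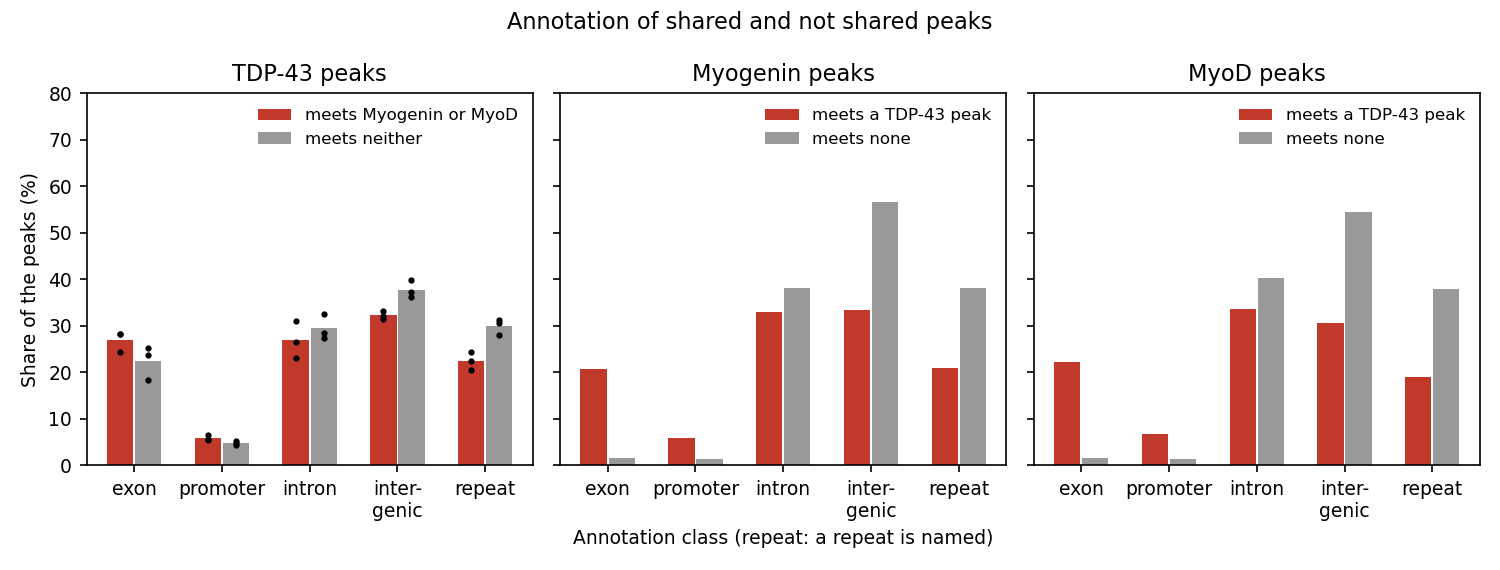
Share of peaks (y axis, percent) in 4 annotation classes and in named repeats, for TDP-43 peaks that met a myogenic factor or neither (bars are means and dots the 3 libraries), and for Myogenin and MyoD peaks that met a control TDP-43 peak or none (1 library each). Exon bars are taller for peaks that met the other protein in all 3 panels, most of all in the myogenic lists, where exons hold about 1.5% of the peaks that met no TDP-43.

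Repeats were less frequent among shared sites. The annotation named a repeat for 22.5%, 24.3% and 20.5% of shared peaks in libraries 1 to 3 and for 31.3%, 30.6% and 28.1% of the others, a difference of -7.53 ± 1.24 points with the same sign in all 3 libraries (-4.78 ± 2.76 points in lists of equal length). The TG repeats for which TDP-43 is known were not where the sharing concentrated. Of peaks in (TG)n or (CA)n repeats, 5.21%, 6.10% and 4.31% were shared, below the share of all peaks in each library. Peaks in LTR retrotransposons were shared in 7.50%, 10.0% and 9.17% of cases and peaks in LINE elements in 5.39%, 6.83% and 7.97%. Within introns and intergenic sequence, where repeats are annotated, 7.77%, 8.34% and 9.93% of peaks with no repeat were shared, against 5.79%, 7.41% and 7.07% of peaks in a repeat.

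Elongating polymerase marked many of the shared sites. Serine 2 phosphorylation of the polymerase tail marks transcription under way, and 12.0%, 19.7% and 21.6% of all TDP-43 peaks in libraries 1 to 3 overlapped a peak of the Pol II library. Among shared peaks the values were 18.5%, 26.4% and 30.8%, against 11.5%, 19.0% and 20.6% of the others, a difference of 8.21 ± 1.71 points (15.5 ± 3.18 points in lists of equal length). Conversely, 12.1%, 12.3% and 13.5% of TDP-43 peaks with Pol II met a myogenic factor, and 7.27%, 8.37% and 8.33% of those without. Pol II lay on a larger share of the Myogenin and MyoD peaks that met TDP-43 than of those that did not. Of the 611 Myogenin peaks that met Pol II, 353 also met TDP-43 and 258 did not. Of the 330 such MyoD peaks, 219 did and 111 did not. Pol II lay on 16.7% of Myogenin peaks with TDP-43 and 0.229% of those without, and on 19.7% of MyoD peaks with TDP-43 and 0.157% of those without. TDP-43 peaks that met neither factor carried Pol II in 11.5%, 19.0% and 20.6% of cases. How far the rates in the myogenic lists follow from that overlap of TDP-43 with Pol II was not tested. The order of exon, intergenic and repeat shares between shared and other TDP-43 sites stayed as it was when sites with Pol II were left out, at 5.28, -6.85 and -9.90 points.

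TDP-43 sites that recurred between libraries were shared more often. Of peaks that met a peak of at least 1 other TDP-43 library, 11.5%, 10.8% and 11.1% met a myogenic factor in libraries 1 to 3, against 7.01%, 7.49% and 7.28% of peaks found in 1 library. The difference was 3.85 ± 0.586 points, and it was 0.558 points in lists of equal length. Peaks present in all 3 libraries were shared in 13.1%, 12.3% and 12.6% of cases. Taller peaks were also shared more often. With each list divided into 5 equal groups by score, the share was 5.05% in the lowest group and 10.8% in the highest in library 1, 6.48% and 11.2% in library 2, and 7.96% and 12.5% in library 3.

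**Figure D3:**
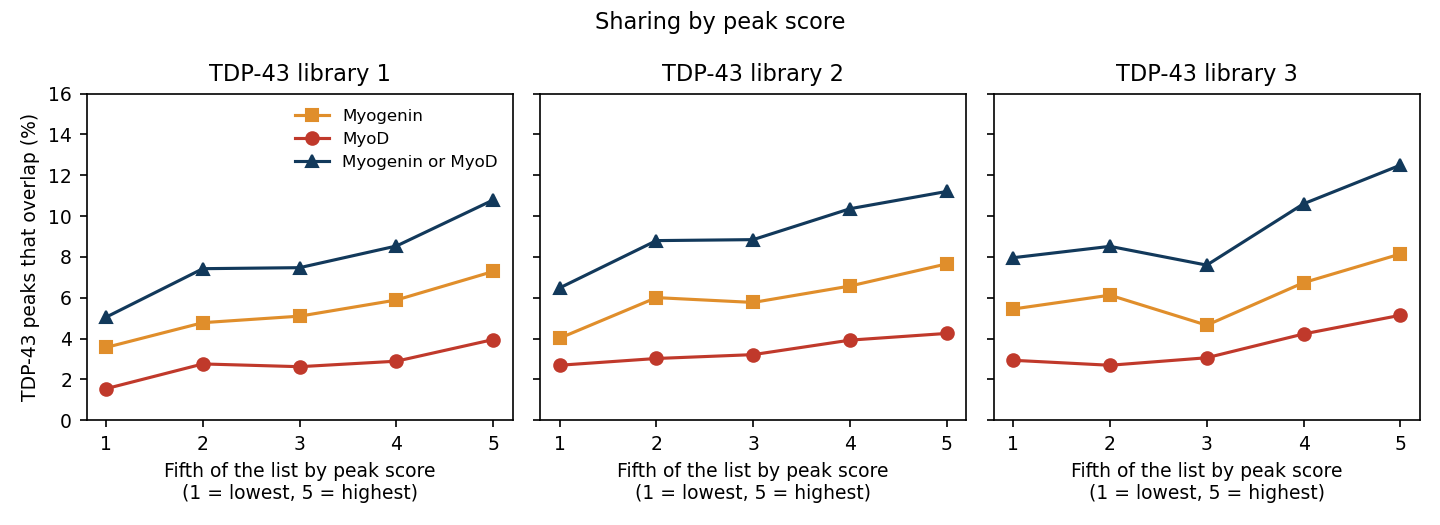
Share of TDP-43 peaks that met Myogenin, MyoD or either (y axis, percent) in 5 equal groups of each library's list ordered by the authors' peak score (x axis, lowest to highest). The lowest group lies at 5.05% to 7.96% for either factor and the highest at 10.8% to 12.5%.

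Partner peaks were concentrated close to TDP-43 centres. In the first 100 bp from a TDP-43 peak centre, Myogenin centres were 3.70 ± 0.424 times and MyoD centres 2.95 ± 0.619 times as frequent as at 1000 to 2000 bp (SD, n = 3 libraries). From 100 to 200 bp the ratios were 1.64 for Myogenin and 1.38 for MyoD. The Pol II library gave a sharper profile, at 41.7 ± 7.58 times in the first 100 bp. Among overlapping pairs the median distance between centres was 75, 63 and 65.5 bp for Myogenin and 82, 66 and 62 bp for MyoD. It was 35, 31 and 32 bp for Pol II, and 20 to 36 bp between TDP-43 libraries. Shared myogenic sites therefore lay less exactly on the TDP-43 centre than Pol II sites or TDP-43 sites of another library did in each of the 3 libraries.

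**Figure D4:**
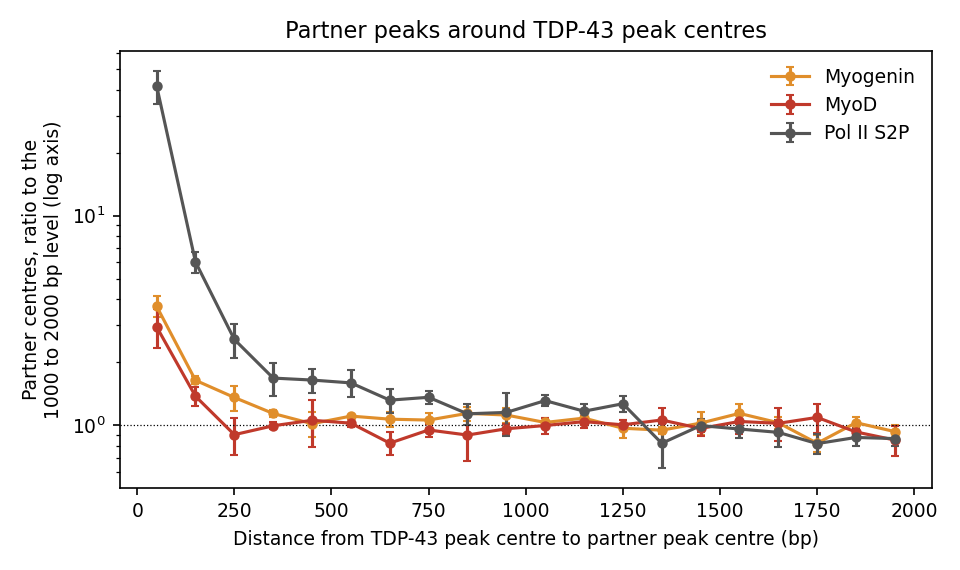
Frequency of Myogenin, MyoD and Pol II peak centres in 100 bp bins around TDP-43 peak centres, as a ratio to the level at 1000 to 2000 bp (log axis), mean with SD over the 3 TDP-43 libraries. Myogenin reaches 3.70, MyoD 2.95 and Pol II 41.7 in the first bin.

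Merging the TDP-43 peaks of the 3 libraries gave 39849 loci, of which 3155 were shared: 2035 with Myogenin alone, 1034 with MyoD alone and 86 with both. Most were seen as shared in 1 library (2427), 542 in 2 and 186 in all 3. Of those 186, 67 were intergenic, 52 lay in exons, 36 in introns and 9 at promoters. Pol II lay on 581 of the 3155 shared loci (18.4%), against 11.6% of the loci that met neither factor. It lay on 87 of the 186 (46.8%), which were selected for recurrence as the loci of neither factor were not. Loci are named below by the nearest gene in the deposited annotation, ranked by the number of libraries with a sharing peak and then by tags, so all of them were shared in 3 libraries.

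Among loci that met both factors outside repeats, exons and introns of genes from several pathways came first. The last exon of Dnmt3a, a de novo DNA methyltransferase (exon 18 of 18, chr12:3907545-3907793), had 17, 9 and 12 TDP-43 tags in libraries 1 to 3, 21 Myogenin tags and 9 MyoD tags. The first exon of Tacr3, the neurokinin B receptor (chr3:134829018-134829450), had 22, 9 and 5 TDP-43 tags, 13 Myogenin tags and 7 MyoD tags. Neither carried Pol II. An intron of Kctd16, an auxiliary subunit of GABA-B receptors, had 12, 10 and 19 TDP-43 tags and, at 80 tags, the highest MyoD peak of all named loci, with 22 Myogenin and 36 Pol II tags. The promoter-class site 781 bp before Oasl1, a gene of the antiviral oligoadenylate synthetase-like family (chr5:114922350-114922604, which overlaps the Gm13822 window shown above and runs past its end), had 12, 18 and 11 TDP-43 tags against 8 Myogenin and 6 MyoD tags. The remaining loci of this class were an intronic site named for Erdr1, an exon of Ubap2 near Ube2r2, and intergenic sites near Smoc1 and Gm14496, with 5 to 31 TDP-43 tags. Erdr1 lies in the region that the sex chromosomes share, so reads from its copies cannot be told apart.

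The leading loci of Myogenin alone lay in exons, in an untranslated region, at a gene end, at a promoter and between genes. A site 2893 bp before Irx3, an Iroquois homeobox gene (chr8:91804423-91804793), had 25, 13 and 10 TDP-43 tags and 14 tags each of Myogenin and Pol II. Exon 2 of Pcdh1, a protocadherin, had 27, 5 and 5 TDP-43 tags and 15 Myogenin tags. The gene end of Cc2d1a (nearest start Podnl1), the single exon of Gm11564, the 3′ untranslated region of Fam53c (nearest start Kdm3b, a histone demethylase) and a site far from Tenm3, a teneurin, followed with 5 to 31 TDP-43 tags. The highest of all was exon 29 of Sfi1, which encodes a centrin-binding protein (nearest start Pisd-ps1, chr11:3134240-3134489), with 107, 36 and 36 TDP-43 tags, 53 Myogenin and 47 Pol II tags. Pisd-ps1 and Pisd-ps2 are pseudogenes with related copies in the genome, and how reads with several matches were treated is not given in the sources used here, so these values are uncertain.

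Among loci of MyoD alone, exon 2 of Slc32a1, the vesicular transporter of GABA (chr2:158613856-158614121), had 26, 6 and 7 TDP-43 tags and 11 MyoD tags. The last exon of Cenpm, which encodes a centromere protein (nearest start Tnfrsf13c), had 23, 6 and 8 TDP-43 tags, 8 MyoD tags and 9 Pol II tags. The others were a second Pisd-ps1 site, an exon of a transcript of Phf21b (nearest start Gm20556), and intergenic sites near Pea15b, Mroh5 and Mir8091. In each of these loci library 1 held the most tags, as it did in the 8 of Myogenin alone, and it was also the library with the most peaks. The 3 leading loci in repeats were a (TGGA)n repeat near Rhou and a (CTG)n repeat in an intron of Mctp1 (nearest start Ankrd32), both with MyoD, and a large-subunit ribosomal RNA repeat near Hic2 with both factors. These had 6 to 42 TDP-43 tags.

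**Figure D5:**
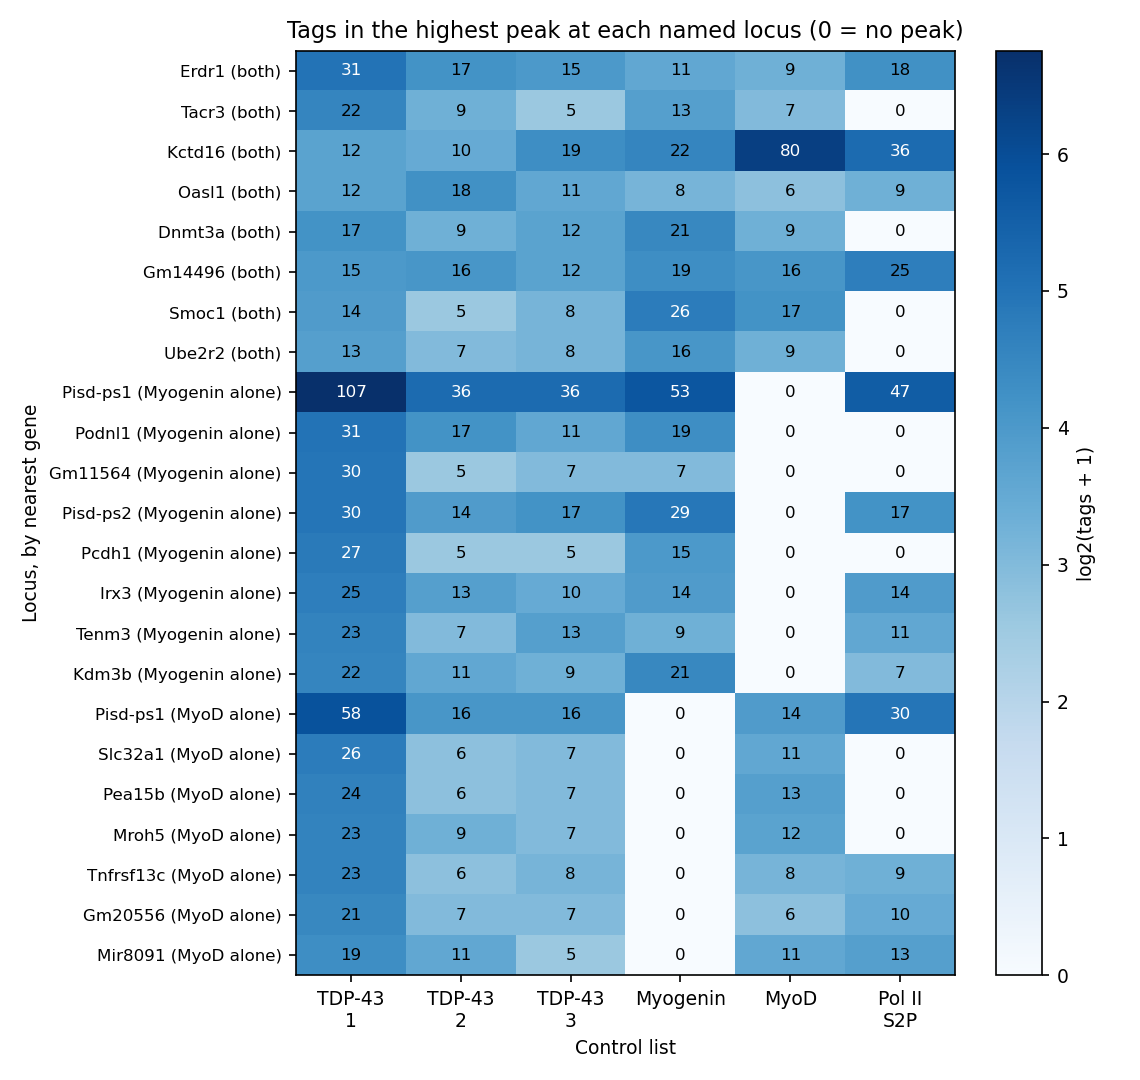
Tags in the highest peak of each control list (columns) at the named loci outside repeats (rows, by nearest gene and by the myogenic factor met), coloured by log2(tags + 1), where 0 means no peak in that list. TDP-43 tags range from 5 to 107 and Kctd16 stands out with 80 MyoD tags.

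Shared promoter peaks numbered 129 of 1297 in library 1, 64 of 523 in library 2 and 44 of 426 in library 3 (9.95%, 12.2% and 10.3%). They named 190 genes in all, of which 31 came up in 2 libraries and 8 in all 3. Without library 1 the total was 94 genes. The 8 recurrent ones were Pisd-ps2, Oasl1, Lrat, Fgf16, Sowaha, Ankrd45, Fam73a (now Miga1) and Hoxd10. Lrat encodes the enzyme that esterifies retinol, and its site, with 14, 11 and 6 TDP-43 tags and 9 Myogenin tags, is the promoter of the neighbouring transcript Rbm46os. Fgf16, a fibroblast growth factor, had 12, 7 and 6 TDP-43 tags and 11 Myogenin tags 629 bp before its start. Hoxd10 had 9, 7 and 5 TDP-43 tags and 6 MyoD tags, and Ankrd45 had 12, 5 and 9 TDP-43 tags and 9 MyoD tags. Miga1, which encodes a mitochondrial outer membrane protein, had 11, 7 and 5 TDP-43 tags and 7 MyoD tags. None of the 8 is on the list of muscle structure and contraction genes described below. That list holds 62 of the 14073 genes named for a TDP-43 peak, so a count among 8 genes says little.

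At the level of genes rather than sites, protein-coding genes with a TDP-43 promoter peak more often had a promoter peak of a myogenic factor. A Myogenin promoter peak was present at 12.3%, 11.9% and 11.5% of them in libraries 1 to 3, against 6.16% of all 21900 protein-coding genes. A MyoD promoter peak was present at 6.24%, 6.85% and 9.22%, against 3.79% of all. These genes numbered 130, 52 and 40 for Myogenin and 66, 30 and 32 for MyoD. Counted separately, the TDP-43 promoter peak itself overlapped a Myogenin peak of any class at 74, 34 and 18 protein-coding genes. It overlapped a MyoD peak of any class at 40, 21 and 18. The second count need not be a part of the first, since the partner peak can be of another class. As a share of the myogenic lists, libraries 1 to 3 covered 9.64%, 3.86% and 2.97% of the Myogenin promoter genes and 7.96%, 3.62% and 3.86% of the MyoD promoter genes.

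Windows of shared promoters held E-boxes about as often as other promoter windows did. Of the 158 RefSeq windows of 250 bases that a shared TDP-43 peak overlapped, 60.1% held CANNTG (95% Wilson interval 52.3 to 67.4%), against 65.7% of 1335 windows with a TDP-43 peak that met neither factor and 66.2% of all 32817 windows. CAGCTG, an E-box of the CANNTG family, was found in 18.4% (13.1 to 25.1%), 17.5% and 13.0% of these windows, and CAGGTG in 22.8%, 23.9% and 17.2%. TGTGTG was found in 13.9%, 14.8% and 17.9%. Windows under a Myogenin peak held CANNTG in 66.4% of cases and windows under a MyoD peak in 64.5%, close to the share in all windows. They held CAGCTG in 13.7% and 11.9% of cases and CAGGTG in 17.3% and 14.7%, against 13.0% and 17.2% of all windows. Both strands were read, and windows can overlap one another where genes have nearby starts. A motif was counted anywhere in its window, whether or not the peak covered it.

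Myod1, the gene of MyoD, carried a shared site at its own promoter. Its TDP-43 peak lay 115 bp before the annotated start in library 1 (chr7:46376235-46376483, mm10, 8 tags) and 101 bp before it in library 2 (6 tags), and library 3 had no peak there. Both met a Myogenin peak of 9 tags, and a Pol II peak of 6 tags lay at the same locus. Myog, the gene of Myogenin, had 3 TDP-43 peaks in library 1, one of them 232 bp before the start, and 1 in library 2, but none of them was shared. The Myogenin list had no peak named for Myog, and the MyoD list had 1, 8091 bp before the start. Cdkn1a, the cell cycle inhibitor p21, had 1 TDP-43 peak in each of libraries 2 and 3, 5525 and 5523 bp before its start, and neither was shared. The MyoD list had no peak named for Cdkn1a, and the nearest of 2 Myogenin peaks lay 16054 bp after its start. Tardbp and Filip1, the gene beside the Myolinc locus, were named for no control TDP-43 peak.

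The share of muscle genes with a shared site lay on either side of that of all genes, depending on the library. Of 86 genes of muscle structure and contraction, 62 were named for a TDP-43 peak and 10 of these (16.1%) for a shared one, against 2710 of 14073 genes of any kind (19.3%). In single libraries the counts were 6 of 57 (10.5%), 6 of 27 (22.2%) and 3 of 21 (14.3%), beside 16.6%, 13.5% and 12.9% of all named genes. Counted by locus, 12 of 155 TDP-43 loci of the list were shared (7.74%), against 7.92% over all genes. Mylk2, the skeletal muscle myosin light chain kinase, was the only member shared in all 3 libraries, at an intergenic site 9724 to 9785 bp before its start (6, 5 and 8 TDP-43 tags, 15 Myogenin tags). Exon 27 of Myh8, the perinatal myosin heavy chain, had 11 and 9 TDP-43 tags in libraries 1 and 2 at a MyoD peak of 11 tags and a Pol II peak of 9 tags.

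Acta1, skeletal muscle actin, had shared sites in exon 5 in library 1 (12 tags) and exon 4 in library 2 (10 tags), each with 12 Myogenin tags. Ryr1, the calcium release channel, met Myogenin at exon 2 in library 1 and at intron 2 in library 3, with 5 TDP-43 tags in each. Ckm, muscle creatine kinase, met Myogenin in exon 4 in library 3 with 6 TDP-43 and 19 Myogenin tags. Cacng1 and Dysf, as well as an exon of Myh2 that was named for Myh1, met Myogenin in library 2, and Trdn did so in library 1, with 5 to 9 TDP-43 tags. Of the 10 genes of the list with a shared site, 8 met Myogenin alone and Myh8 met MyoD alone. Over all 3155 shared loci, 2035 met Myogenin alone. Exons held a shared site of 7 of the 10 genes, and no shared site lay in a promoter. Over all shared peaks of libraries 1 to 3, exons held 24.5%, 28.3% and 28.2%, and promoters 5.53%, 6.63% and 5.71%. Counts by gene and by peak differ in unit, and no difference was tested.

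Regulators of myogenesis showed 11 of 38 genes with a shared site (28.9%, against 19.3% of all genes), and 14 of their 153 loci (9.15%, against 7.92% of all loci). Their median was 3 TDP-43 loci per gene, against 2 over all genes. Besides Myod1 these included Tead4, a TEA-domain factor, with a promoter site 54 bp before its start in library 3 (7 TDP-43 and 13 Myogenin tags). Pax7, which marks muscle stem cells, had an intronic site with Myogenin (12 TDP-43 and 17 Myogenin tags) and a site 32765 bp before its start that met both factors (13 TDP-43, 20 Myogenin and 16 MyoD tags), both in library 1. A site in Ptk7 that was named for Srf, the serum response factor, was shared with Myogenin in all 3 libraries (4, 7 and 6 TDP-43 tags, 16 Myogenin tags), and another met MyoD in library 1 (9 TDP-43 and 7 MyoD tags). Exon 2 of Six2, a homeobox gene, met a Myogenin peak of 15 tags in library 3 with 9 TDP-43 tags. Igf2, an insulin-like growth factor, met MyoD in the antisense transcript Igf2os in library 2, and Id2, Id4 and Tead1 met Myogenin once each. Tcf4, which encodes an E-protein, met MyoD in library 2 and Myogenin in library 3 at different introns.

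The other lists covered both sides of these shares. Neuronal and synaptic genes had the highest share of genes, 16 of 47 (34.0%), but also the most TDP-43 loci per gene, with a median of 4 against 2 over all genes, and by locus their share was 18 of 275 (6.55%). Exon 6 of Nrxn3, which encodes a presynaptic neurexin, met MyoD in all 3 libraries, with 17, 5 and 8 TDP-43 tags and 13 MyoD tags. The shares over all genes were 19.3% by gene and 7.92% by locus. RNA-binding and splicing genes had 7 of 27 genes (25.9%) and 10 of 139 loci (7.19%). Their share by gene was 28.0% in library 1, 6.25% in library 2 and 7.14% in library 3, so the total rests on library 1. Cell cycle genes had 2 of 26 (7.69%) and 3 of 44 loci (6.82%), and hepatocyte genes, a tissue not present here, 2 of 18 (11.1%) and 2 of 55 loci (3.64%). By locus all 6 lists lay between 3.64% and 9.15%.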

How the data were processed

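Peaks were called per library with IgG as the background and annotated with HOMER on mm10, per the file headers and the submitters' processing notes. The sources used here give neither its version nor the aligner and the calling parameters. The deposited peak score is the authors' value per peak and was used only within a list. Scores were whole multiples of 1 step per list (tolerance 0.05, 100% of scores with the 1% highest set aside), and a score divided by its step was read as tags. If scores are scaled to 10000000 tags, an assumption, the libraries held 962386 to 1394415 tags (TDP-43), 3400217 (Myogenin), 3378327 (MyoD) and 1455044 (Pol II). Median tags per peak were 8, 6 and 6 in TDP-43 libraries 1 to 3, so single sites rest on few reads. Intervals are Wilson intervals at 95% on counts of peaks or promoter windows. They cover counting error alone, because peaks and windows are not replicates. Tags may also include reads copied by PCR, which are not independent.

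Overlaps of 1 bp or more, class shares, distances and merged loci were computed in Python 3.11.15 with pandas 2.3.3 and numpy 2.4.6, after tests on simulated lists. Differences between shared and other peaks were taken inside each TDP-43 library and tested by an exact two-sided sign-flip permutation test over 3 libraries, with Benjamini-Hochberg adjustment over 8 tests. Alternatives were an overlap of 50% of the shorter peak, peaks extended by 500 bp, peaks at or above the median score, lists of equal length, no repeats, no Pol II sites, and each TDP-43 library left out. Named loci were the first 8 per class outside repeats and the first 3 in repeats, by number of sharing libraries and then tags, together with the first 8 promoter genes, members of the 2 muscle lists with a shared peak, and Filip1, Myod1, Myog, Acta1, Cdkn1a and Tardbp. Nrxn3 was chosen after its values were seen. A few loci and genes that the rule names are not reported here. The members and the 6 gene lists were chosen with earlier results of these data known. Of 14073 named genes, 14029 were found in the RefSeq gene table. No genome sequence was used, so sequences are RefSeq promoter windows. The 4 input and IgG samples were not analysed here.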

Additional observations from a re-analysis of the deposited data

How the results depend on the processing

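Of 70 recomputed values of the 8 differences between peak groups, 68 kept their direction and 2 reversed, both of the promoter difference: -0.979 points with only the higher-scoring peaks (from the median up) and -1.46 points in lists of equal length. The cause of these reversals was not tested. Direction was read on the mean over libraries. With a TDP-43 library left out it could not change, as each difference had the same sign in all 3 libraries. Only the recurrence difference was open there, since recurrence was counted anew. The sign held in only 2 of 3 libraries for Myogenin minus MyoD and intergenic (lists of equal length). The same was true for promoter (50% overlap) and intron (50% overlap, 500 bp extension). As each test has a smallest p of 0.25, no call could be lost. The Myogenin share was 4.16% if 50% of the shorter peak had to overlap, 16.2% with peaks extended by 500 bp, 3.01% from the median score up and 0.551% in lists of equal length. The MyoD share was 2.28%, 9.62%, 2.39% and 0.498% under the same settings, and the share that met both 0.188%, 1.66%, 0.193% and 0.0163%. Fewer or shorter peaks leave fewer overlaps by construction, so the differences in lists of equal length rest on few shared peaks. The 190 promoter genes became 479 with extended peaks, 55 from the median score up and 6 in lists of equal length. With each TDP-43 library left out, the range was 94 to 168 genes, 5.67% to 6.12% for Myogenin, 3.09% to 3.52% for MyoD, and 3.69 to 5.37 points for the exon difference. The differences were paired inside each TDP-43 library. Libraries could not be paired across antibodies, because the Myogenin and MyoD groups have 1 library each and share fewer than 2 replicate numbers with TDP-43. With a median of 6 to 8 tags per TDP-43 peak, the absence of a site from a library may be a limit of depth.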

Other observations

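The shared sites were also set against the lists made after Myolinc knockdown, which have 1 library per antibody and no replicate check. Of the shared control sites in libraries 1 to 3, 7.97%, 7.14% and 8.18% met a TDP-43 peak made after knockdown, against 5.70%, 7.07% and 7.28% of the control TDP-43 sites that met neither factor. Of the siMyolinc TDP-43 peaks themselves, 2.94% met the control Myogenin list and 2.19% the control MyoD list, or 5.04% for either. Among the named loci outside repeats, Gm14496 had a siMyolinc TDP-43 peak of 50 tags, Smoc1 had one of 8 tags and the promoter site named for Lrat had one of 7 tags.

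The share of TDP-43 sites that met a myogenic factor differed between chromosomes. Averaged over the 3 libraries it was highest on chromosomes 17 (11.5%) and 15 (11.1%) and lowest on chromosomes 14 (6.29%) and 7 (6.52%), leaving aside chromosome Y, which had 1 shared peak per library. Tcp11, named for a testis-expressed gene on chromosome 17, had the most shared loci of any gene name, 6 of its 22 TDP-43 loci, followed by Pcdh17 with 5 of 32 and Mir3065 with 5 of 9. These names were chosen after their values were seen, and no difference between chromosomes was tested.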
